A study of Homo sapiens with 6 samples.

Results

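The 8 genes described here, KLK2, KLK3, TMPRSS2, FOXA1, FOLH1, STEAP1, STEAP2 and SLC45A3, belong to the androgen receptor and prostate lineage program, and they were taken by their symbols from the 64253 genes of the deposited count tables. Gene expression was measured by RNA sequencing in PC-3, an established human prostate cancer cell line that grows without androgen. Both groups were PC-3 cells carrying a lentiviral short hairpin RNA. The 3 shCdGAP samples carried an shRNA against CdGAP, a GTPase-activating protein for Rac1 and Cdc42 encoded by ARHGAP31, and the 3 shCon samples carried a control shRNA. The methods describe CdGAP-depleted PC-3 cells as puromycin-selected and grown up from single cells, without naming the clone that was sequenced, and they do not describe cloning of the control cells. An effect of the knockdown and a difference between 1 clone and the control cells, cloned or not, therefore cannot be told apart in these libraries. The comparison asks how the RNA level of each gene differs between CdGAP-depleted and control cells.

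The androgen receptor is a ligand-activated transcription factor of luminal prostate cells. On binding androgen it moves to the nucleus and occupies response elements near genes such as KLK3, which encodes prostate-specific antigen, and TMPRSS2. The pioneer factor FOXA1 opens chromatin at many of these sites, with HOXB13 and GATA2 as further partners. FOLH1, STEAP1, STEAP2 and SLC45A3 encode membrane proteins of prostate epithelium that are used as tissue markers or as targets of antibodies and imaging agents.

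Between 33182796 and 43154039 reads were counted on genes per library. ARHGAP31 had 1072, 1181 and 926 reads in shCdGAP and 2472, 2557 and 1923 in shCon replicates 1, 2 and 3, so every shCdGAP library was below every shCon library, with a log2 fold change of -1.14. shCdGAP replicate 2 stood apart from the other shCdGAP libraries. The root mean square log2 difference between it and the others was 0.368 and 0.387, compared with 0.25 between replicates 1 and 3 and 0.259 to 0.28 among shCon libraries. Values without that library are given beside some results, and not beside every result that it moves. For FOXA1, the adjusted p was 3.15e-21 without it and 1.7e-05 to 5.05e-05 without any other library (edgeR's quasi-likelihood test). Adjusted p-values without shCdGAP replicate 2 are therefore not read as the strength of a result.

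The 8 members fell into a silent and a transcribed set of 4 genes each. KLK2, KLK3 and FOLH1 had no read in any of the 6 libraries, and TMPRSS2 had 2 reads in shCdGAP replicate 1 and none elsewhere. SLC45A3, STEAP2, STEAP1 and FOXA1 had between 876 and 10689 reads per library. The gap between both sets was wide in each group, and no member lay between 2 and 876 reads.

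**Figure D1:**
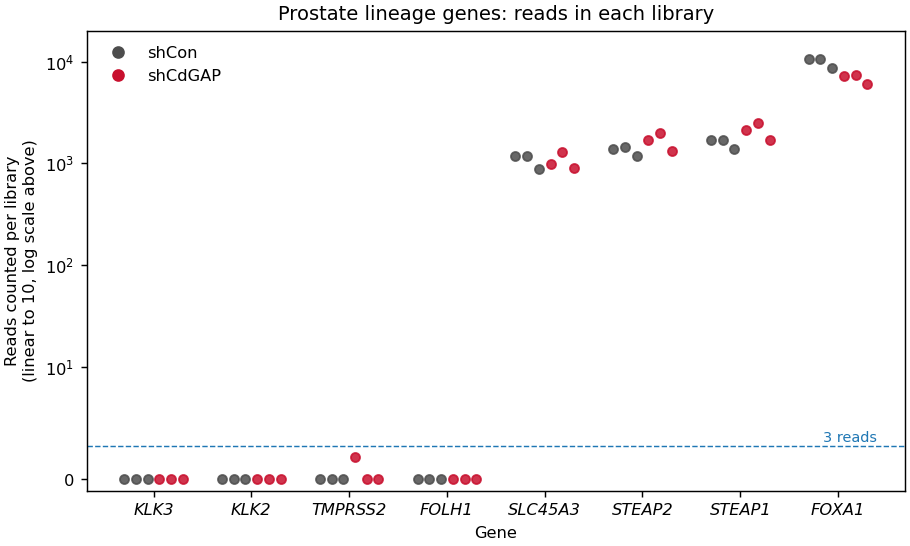
Reads counted in each library (vertical axis, linear to 10 and logarithmic above) for the 8 members (horizontal axis); grey points are the 3 shCon libraries, red points the 3 shCdGAP libraries, and the dashed line marks 3 reads. KLK3, KLK2, TMPRSS2 and FOLH1 lie at or under 3 reads in every library, and SLC45A3, STEAP2, STEAP1 and FOXA1 lie at 876 reads or more.

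KLK3 (ENSG00000142515, GRCh38 chromosome 19 from 50854915 to 50860764, plus strand) encodes prostate-specific antigen, a secreted serine protease whose blood level is followed in patients with prostate cancer. KLK2 (ENSG00000167751, chromosome 19 from 50861568 to 50880567, plus strand) lies beside it and encodes the related protease hK2. The reads of both genes were 0 in shCdGAP replicates 1, 2 and 3 and 0 in shCon replicates 1, 2 and 3. A count of 0 allows a level of up to 3 reads, which is 0.0688 to 0.0907 CPM in these libraries, where CPM stands for reads per 1e6 counted reads after TMM scaling of the library sizes. Per kilobase of counted exon, that limit was 0.0148 to 0.0196 RPKM for KLK3 and 0.0108 to 0.0142 RPKM for KLK2. Reads that align to several places are not counted, so the uniqueness of the exons was checked. Of the 50-base windows of the counted exons, 99.8% for KLK3 and 98% for KLK2 occurred once in GRCh38. A difference between the groups was not detectable at this depth for either gene.

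The starts of both genes are shown because a well known androgen response element of prostate cells lies in the KLK3 promoter. The sequences below are the 250 bases upstream of the RefSeq start (GRCh38.p14), read 5′ to 3′ on the plus strand, from chr19:50854665-50854914 for KLK3 and chr19:50873189-50873438 for KLK2. The KLK2 window lies inside the counted Ensembl gene, which begins at 50861568. Capitals mark the 15 bases around the response element and the TATA box, read here as TTTATA.
KLK3: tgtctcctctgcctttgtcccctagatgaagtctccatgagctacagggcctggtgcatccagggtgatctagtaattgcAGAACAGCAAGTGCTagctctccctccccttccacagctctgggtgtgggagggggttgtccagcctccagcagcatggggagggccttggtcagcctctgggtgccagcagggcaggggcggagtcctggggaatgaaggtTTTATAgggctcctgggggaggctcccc
KLK2: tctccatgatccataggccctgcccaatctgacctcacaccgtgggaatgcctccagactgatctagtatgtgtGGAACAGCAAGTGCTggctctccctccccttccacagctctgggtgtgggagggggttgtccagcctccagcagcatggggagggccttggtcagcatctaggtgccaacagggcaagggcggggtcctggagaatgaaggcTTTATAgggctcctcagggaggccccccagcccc

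The promoters of KLK3 and KLK2 were identical at 211 of 263 aligned columns (80.2%). The androgen and glucocorticoid receptor half-site AGAACA was searched on both strands of all 35116 promoter windows of this length and was present in 12.4% of them. KLK3 held it at base -170, counted from the RefSeq start. The KLK3 element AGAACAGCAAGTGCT and its KLK2 counterpart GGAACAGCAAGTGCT at base -176 shared 14 of 15 bases, with the substitution A1G counted from the first of the 15. The KLK2 stretch thus held only the shorter form GAACA, found in 30.6% of promoters. The TATA box TATAAA, present in 10.7% of promoters on either strand, lay on the minus strand at base -28 in KLK3 and base -34 in KLK2. These matches describe the reference sequence, and binding was not measured.

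The low counts extended over the kallikrein cluster. Of its other 13 genes on chromosome 19, 7 had no read in any library and 12 had at most 3 reads in every library. KLK14 was the exception, with 4, 7 and 3 reads in shCdGAP and 8, 6 and 6 in shCon libraries, and it was too low to be tested. Genes were tested only if they passed the filter on low counts, so the nearest tested genes around the cluster were transcribed by construction. The 5 on each side of KLK3 had a median log2 fold change of 0.44, and it was 0.11 with 10 on each side. Of the nearest 10, 5 were higher and 1 lower in shCdGAP cells at an adjusted p under 0.01 in edgeR's quasi-likelihood test.

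TMPRSS2 (ENSG00000184012, chromosome 21 from 41464551 to 41531116, minus strand) encodes a type II transmembrane serine protease and is a partner of the ERG gene fusion in prostate tumors. Its 2 reads in shCdGAP replicate 1 correspond to 0.0493 CPM and lie under the limit of 3 reads, so no fold is given. Among 16 related proteases of the same class, 10 had at most 3 reads in every library and 2 were tested. ST14, which encodes matriptase, had 928, 1527 and 779 reads in shCdGAP and 75, 88 and 60 in shCon libraries. It was higher in all 3 shCdGAP libraries, at 26.9 ± 7.09 compared with 1.9 ± 0.164 CPM (SD, n = 3 each), with a log2 fold change of 3.82 (SE 0.217, adjusted p = 4.63e-06, edgeR). TMPRSS5, with 8, 12 and 10 compared with 16, 9 and 7 reads, did not pass the test. ST14 was thus transcribed in both groups, while TMPRSS2 was at the floor.

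FOLH1 (ENSG00000086205, chromosome 11 from 49146635 to 49208670, minus strand) encodes prostate-specific membrane antigen, a glutamate carboxypeptidase. It had 0 reads in each shCdGAP and each shCon library, which allows a level of up to 0.018 to 0.0237 RPKM. FOLH1 has a close copy, FOLH1B, and 65.2% of its 50-base exon windows occurred once in GRCh38. Reads from the remaining windows could be lost as multiply aligned. The limit divides by the full exon length, so it is too low to the extent that such reads were lost. FOLH1B also had no read. Of the 4 relatives of FOLH1, NAALADL2 was tested, at 2.32 ± 0.209 CPM in shCdGAP and 2.96 ± 0.144 CPM in shCon cells (SD, n = 3 each; log2 fold change -0.36, adjusted p = 0.0356, edgeR), and it did not pass.

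Partners of the receptor differed in level. GATA2, a zinc-finger partner of the receptor, had 0, 0 and 0 reads in shCdGAP and 0, 1 and 1 in shCon libraries. HOXB13, the homeobox partner and a defining marker of prostate origin, was abundant in both groups, with 10815, 14761 and 9101 reads in shCdGAP and 13063, 12849 and 9994 in shCon libraries. The HOXB13 groups overlapped at 290 ± 42.2 and 306 ± 4.67 CPM (SD, n = 3 each), and the difference did not pass (log2 fold change -0.08, adjusted p = 0.499, edgeR). Without shCdGAP replicate 2 it passed at -0.21 (adjusted p = 1.99e-09). The luminal keratins KRT8 and KRT18 were present at 192 and 270 CPM in shCdGAP cells and 185 and 253 CPM in shCon cells. The secretory marker MSMB had no read. The libraries thus held HOXB13, KRT8 and KRT18, with MSMB and GATA2 at the floor. Of the 28 luminal lineage genes listed, 9 had at most 3 reads in every library, and 5 of these had no read.

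FOXA1 was the most abundant member per length and the 1 of the 4 tested members that fell. FOXA1 (ENSG00000129514, chromosome 14 from 37589984 to 37596059, minus strand) had 7212, 7413 and 6042 reads in shCdGAP and 10689, 10651 and 8649 reads in shCon libraries. Scaled to library size, these were 178, 170 and 176 CPM in shCdGAP and 255, 252 and 262 CPM in shCon cells. All 3 shCdGAP libraries lay below all 3 shCon libraries. The means were 175 ± 3.97 and 256 ± 4.89 CPM (SD, n = 3 each), so that FOXA1 fell by 31.9%, with a log2 fold change of -0.55 (SE 0.0342, 95% interval -0.63 to -0.48, adjusted p = 1.85e-06, edgeR's quasi-likelihood test with Benjamini-Hochberg adjustment over 16439 genes). It was -0.54 without shCdGAP replicate 2. In RNA of whole cultures, fewer cells with a transcript and less transcript per cell cannot be told apart.

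The liver and lung relative FOXA2 varied within the shCdGAP group. FOXA2 had 138, 780 and 133 reads in shCdGAP and 759, 696 and 575 in shCon libraries, so replicate 2 alone reached the control level. The log2 fold change was -1.02 and did not pass with all libraries (adjusted p = 0.258, edgeR), and it was -2.27 (adjusted p = 1.52e-24) without replicate 2. FOXA3 had at most 1 read. FOXA1 showed no such spread, since its 3 shCdGAP libraries lay within 170 to 178 CPM.

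STEAP1 and STEAP2, adjacent metalloreductase genes, were both higher in shCdGAP cells. STEAP1 (ENSG00000164647, chromosome 7 from 90154375 to 90164829, plus strand) encodes a membrane heme protein of prostate cancer cells and a target of antibody therapies. It had 2118, 2523 and 1719 reads in shCdGAP and 1698, 1692 and 1397 in shCon libraries, or 52.2, 57.9 and 50 CPM compared with 40.5, 40.1 and 42.3 CPM. The groups did not overlap. The means were 53.4 ± 4.08 and 40.9 ± 1.17 CPM (SD, n = 3 each), an increase of 30.5% with a log2 fold change of 0.38 (SE 0.0591, 95% interval 0.25 to 0.52, adjusted p = 0.000492, edgeR). It was 0.31 without shCdGAP replicate 2. For STEAP1, 78.1% of the 50-base exon windows occurred once in GRCh38. The copy that shares its sequence, STEAP1B, had 4, 6 and 9 reads in shCdGAP and 1, 0 and 0 in shCon libraries, so its counts were far below those of STEAP1.

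STEAP2 (ENSG00000157214, chromosome 7 from 90167590 to 90238137, plus strand) encodes an iron and copper reductase of the Golgi and plasma membrane. It had 1709, 2006 and 1328 reads in shCdGAP and 1388, 1456 and 1195 in shCon libraries, or 42.1, 46 and 38.6 CPM compared with 33.1, 34.5 and 36.1 CPM. The lowest shCdGAP library lay just above the highest shCon library. The means were 42.3 ± 3.71 and 34.6 ± 1.54 CPM (SD, n = 3 each), an increase of 22.5% with a log2 fold change of 0.29 (SE 0.0681, 95% interval 0.14 to 0.45, adjusted p = 0.00523, edgeR). The STEAP2 call was the least stable of the 3. Its adjusted p was 0.0253 without shCdGAP replicate 1 and 0.0352, 0.028 and 0.014 without shCon replicates 1, 2 and 3. The log2 fold change stayed between 0.22 and 0.34, and the 0.22 was without shCdGAP replicate 2 (adjusted p = 4.79e-05, edgeR).

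Per length, STEAP1 exceeded STEAP2 by a factor of 6.65, 6.75 and 6.94 in shCdGAP replicates 1, 2 and 3 and of 6.56, 6.23 and 6.27 in the shCon replicates. The shCdGAP ratios were all above the shCon ratios, a separation that exact permutation of 3 against 3 libraries cannot take below a two-sided p of 0.1. The family member STEAP3, an endosomal ferrireductase, was also higher, at 127 ± 4.88 compared with 92 ± 2.1 CPM (SD, n = 3 each; log2 fold change 0.46, adjusted p = 1.59e-05, edgeR). STEAP4 had 4 to 10 reads per library in both groups and was not tested.

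The starts of the transcribed STEAP pair are shown for comparison with the silent kallikrein pair. They are the 250 bases upstream of the RefSeq start (GRCh38.p14), 5′ to 3′ on the plus strand, at chr7:90154219-90154468 for STEAP1 and chr7:90211490-90211739 for the first of the 2 RefSeq starts of STEAP2. That STEAP2 start lies inside the Ensembl gene. Capitals mark the CpG dinucleotides.
STEAP1: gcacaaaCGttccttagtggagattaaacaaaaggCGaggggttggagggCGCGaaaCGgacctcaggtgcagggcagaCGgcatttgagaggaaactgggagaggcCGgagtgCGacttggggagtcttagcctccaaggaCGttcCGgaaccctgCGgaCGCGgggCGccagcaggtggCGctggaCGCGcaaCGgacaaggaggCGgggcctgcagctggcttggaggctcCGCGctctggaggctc
STEAP2: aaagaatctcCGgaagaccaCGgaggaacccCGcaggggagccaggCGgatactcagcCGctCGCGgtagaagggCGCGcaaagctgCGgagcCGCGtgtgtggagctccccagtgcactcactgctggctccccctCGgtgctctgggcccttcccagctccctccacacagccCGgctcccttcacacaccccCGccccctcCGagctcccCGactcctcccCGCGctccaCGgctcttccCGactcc

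The CpG counts of the sequences shown differed between both pairs. STEAP1 and the first STEAP2 start each held 21 CpG, more than 69.8% of all promoter windows, and the second STEAP2 start held 2. KLK3 held 1 CpG and KLK2 held 2, more than 6.06% and 14.7% of windows. The promoter windows of FOXA1 and SLC45A3 held 26 and 19 CpG. Neither STEAP window printed held the receptor half-site, its shorter form, the TATA box or a forkhead motif, and the STEAP1 and STEAP2 windows were identical at 151 of 297 aligned columns (50.8%). The forkhead motif TGTTTAC, found in 2.98% of promoters, lay at base -66 on the minus strand of the second STEAP2 start. Its variant TGTTTGC, found in 3.23%, lay at base -235 on the minus strand in FOXA1. SLC45A3 held none of these motifs. A start in the promoter table was matched for 6 of the 8 members, and TMPRSS2 and FOLH1 were without one. DNA methylation was not measured.

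SLC45A3 (ENSG00000158715, chromosome 1 from 205657851 to 205680459, minus strand) encodes prostein, a prostate-restricted transporter-like protein. It had 990, 1302 and 904 reads in shCdGAP and 1170, 1196 and 876 in shCon libraries, or 24.4, 29.9 and 26.3 CPM compared with 27.9, 28.3 and 26.5 CPM. The groups overlapped, with the highest and the lowest value both in shCdGAP libraries. The means were 26.9 ± 2.78 and 27.6 ± 0.95 CPM (SD, n = 3 each), and the log2 fold change of -0.04 did not pass (SE 0.0752, 95% interval -0.21 to 0.13, adjusted p = 0.69, edgeR). It was 0.02 without shCdGAP replicate 1 and -0.14 (adjusted p = 0.0166) without replicate 2. Both tested relatives were higher. SLC45A1 had 348, 665 and 311 reads in shCdGAP and 46, 46 and 52 in shCon libraries (log2 fold change 3.15, adjusted p = 4.55e-05, edgeR), and SLC45A4 rose from 17.2 ± 0.147 to 32 ± 2.58 CPM (SD, n = 3 each; log2 fold change 0.89, adjusted p = 5.67e-06, edgeR).

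**Figure D2:**
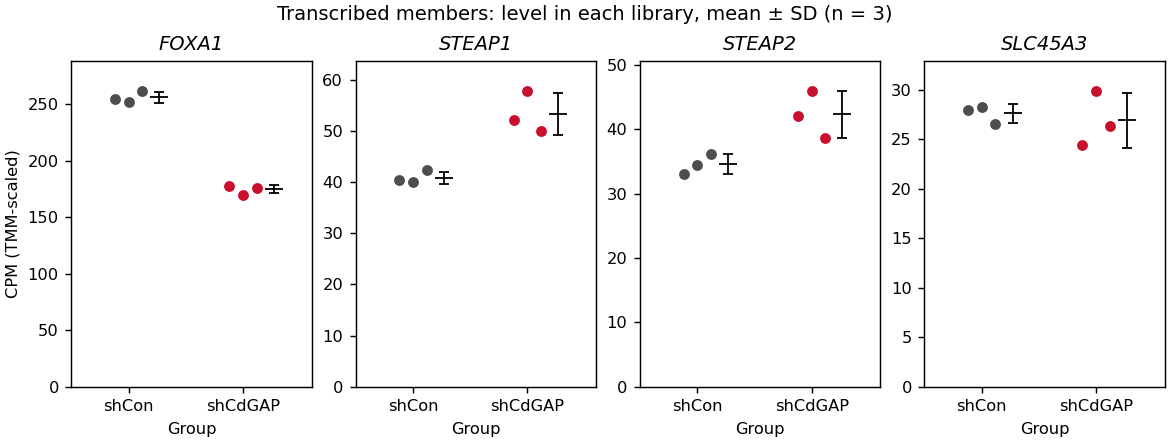
Level in CPM (vertical axes, from 0, each gene on its own scale) of the 4 transcribed members in shCon (grey) and shCdGAP (red) libraries; points are single libraries and black bars the mean ± SD of 3 libraries. FOXA1 falls from 256 to 175 CPM, STEAP1 and STEAP2 are higher in shCdGAP without overlap, and the SLC45A3 groups overlap.

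Of the 4 members tested, 3 passed at an adjusted p under 0.01, compared with 46.2% of the 16439 genes tested. STEAP1 and STEAP2 passed in the higher direction, in which 24.1% of all tested genes passed, and FOXA1 in the lower direction, in which 22.0% passed. With 4 genes, this count cannot be set apart from the background. None of the members had an absolute log2 fold change above 1, a limit that 12.8% of tested genes exceeded with an adjusted p under 0.01. edgeR and DESeq2 each gave 0 members past both limits and 3 with an unadjusted p under 0.05. The groups did not overlap for 3 of the 4 members and for 67.0% of all tested genes. The median log2 fold change was 0.13 over the 4 tested members and 0.01 over all tested genes. No median or count over these 4 speaks for the silent members, which the filter on low counts removed.

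Compared per length, the order of the transcribed members was the same in both groups. FOXA1 stood at 64.3 ± 1.23 RPKM in shCon and 43.8 ± 0.998 RPKM in shCdGAP cells, STEAP1 at 25.2 ± 0.72 and 32.8 ± 2.51, SLC45A3 at 7.45 ± 0.257 and 7.25 ± 0.751, and STEAP2 at 3.97 ± 0.177 and 4.85 ± 0.425 RPKM (SD, n = 3 each). Within each group, the SD ranges of neighbours in this order did not overlap. The level of FOXA1 exceeded that of 95.1% of tested genes, STEAP1 that of 89.3%, SLC45A3 that of 62.2% and STEAP2 that of 50.9%.

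The genes whose levels over the 6 libraries ran closest to FOXA1, by mean absolute difference of centred log2 CPM, were PTPA (0.0149), VHL (0.0157) and ESYT1 (0.0193) among 16438 genes. PTPA encodes a protein phosphatase activator, VHL a ubiquitin ligase subunit and ESYT1 a membrane tether. Their log2 fold changes were -0.55, -0.59 and -0.56, and the likeness is a description over 6 libraries of 2 groups.

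Gene order was examined because cells grown from a single cell can differ from others in gene dose over stretches of the genome. The 5 nearest tested genes on each side of FOXA1 had a median log2 fold change of -0.01, with 1 higher and 3 lower past the test. Among them, TTC6, whose start lies 0.2 kb from that of FOXA1, fell with it (log2 fold change -0.70, adjusted p = 0.000122, edgeR), and so did ENSG00000259087 at 29.0 kb (-1.22, adjusted p = 0.00183). SSTR1, a somatostatin receptor gene at -611.9 kb, was higher at 4.26 (adjusted p = 3.96e-07). FOXA1 was thus below the median of its nearest tested genes, while the closest of them, TTC6 and ENSG00000259087, had more negative values than FOXA1. STEAP1 and STEAP2 were above the medians of their nearest tested genes. The neighbours of STEAP1 had a median log2 fold change of -0.42, with 6 lower past the test and STEAP2 as the 1 that was higher, and those of STEAP2 had a median of -0.41. The neighbours of SLC45A3 had a median of -0.08. DNA copy number was not measured.

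**Figure D3:**
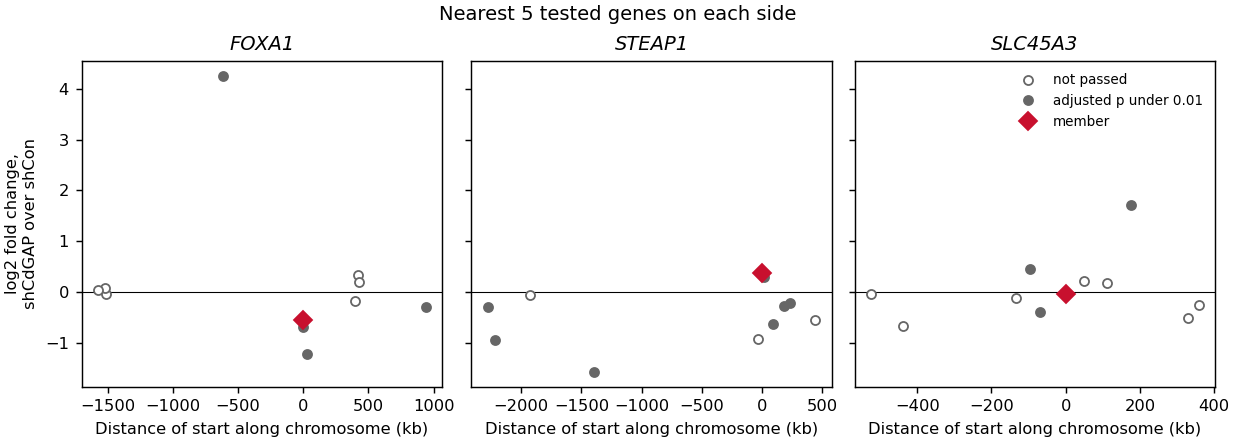
Log2 fold change of shCdGAP over shCon (vertical axis) for the 5 nearest tested genes on each side, by the distance of their start from that of the member in kb (horizontal axis); filled circles have an adjusted p under 0.01, open circles do not, and red diamonds are the members. The neighbours have a median of -0.01 around FOXA1, -0.42 around STEAP1, where STEAP2 is the point beside the diamond, and -0.08 around SLC45A3.

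The wider program was read from lists of genes. Of 39 genes induced by androgen in prostate cells, 32 were tested, 9 were higher, 9 were lower and 14 did not pass. The 56.2% that passed compares with 46.2% of all tested genes, and the median log2 fold change was 0.05. The list had no single direction. LRIG1, a negative regulator of growth factor receptors, had 0, 9 and 0 reads in shCdGAP and 154, 190 and 130 in shCon libraries (log2 fold change -5.68, adjusted p = 4.03e-05, edgeR). The 9 reads were all in shCdGAP replicate 2, and without it the fitted value was -10.28, which depends on the prior count because both other shCdGAP libraries held no read.

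TRPM8 and AZGP1 were among the androgen-induced genes that rose the most. TRPM8, which encodes a cold-sensing cation channel, had 189, 163 and 162 reads in shCdGAP and 24, 23 and 11 in shCon libraries (log2 fold change 3.14, SE 0.203, adjusted p = 2.44e-06, edgeR). AZGP1, which encodes a secreted glycoprotein, had 18, 36 and 24 compared with 8, 3 and 3 reads (log2 fold change 2.43, adjusted p = 0.000956, edgeR). Neither gene overlapped between groups, and both were low, with means of 4.37 CPM (TRPM8) and 0.656 CPM (AZGP1) in shCdGAP cells.

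ALDH1A3 was among the most abundant genes of the list per length. ALDH1A3, which encodes an enzyme that makes retinoic acid, stood at 2149 ± 523 compared with 1083 ± 45.2 CPM (SD, n = 3 each; log2 fold change 0.99, adjusted p = 0.00529, edgeR). Its lowest shCdGAP count, 67403 reads in replicate 2, was above the highest shCon count of 47858. The call was lost in 5 of the 6 fits that leave out 1 library, with an adjusted p of up to 0.0295. It held without shCdGAP replicate 2, at a log2 fold change of 1.17 (adjusted p = 1e-16, edgeR). FKBP5, an HSP90 co-chaperone induced by androgen and by glucocorticoid, fell from 58.8 ± 1.55 to 45.1 ± 0.615 CPM (SD, n = 3 each; log2 fold change -0.38, adjusted p = 4.58e-05, edgeR). The exporter gene ABCC4, named here after its values were seen, fell by 1.83 on the log2 scale, and the 10 tested genes around it on chromosome 13 all fell, with a median of -1.87.

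Of 28 luminal lineage genes, 17 were tested, 6 were higher, 3 were lower and 8 did not pass, a share of 52.9% compared with 46.2% of all tested genes. The median of their log2 fold changes was 0.09. The count and its balance depended on the libraries. Without shCon replicate 1, 5 passed, and without shCdGAP replicate 2, 13 passed, 6 higher and 7 lower. EPCAM, an epithelial adhesion molecule, rose from 83 ± 1.35 to 211 ± 10.6 CPM (SD, n = 3 each; log2 fold change 1.35, adjusted p = 5.02e-08, edgeR). KRT19, a simple-epithelium keratin, stood at 347 ± 89.4 compared with 170 ± 5.05 CPM (log2 fold change 1.04, adjusted p = 0.00367, edgeR), and its neighbours on chromosome 17 had a median of 1.46. RAB3B, a vesicle GTPase gene, had 440, 746 and 330 compared with 234, 275 and 178 reads (log2 fold change 1.11, adjusted p = 0.00348, edgeR). The KRT19 and RAB3B calls were not stable to the library left out, and the adjusted p reached 0.0294 for KRT19 without an shCon library and 0.0175 for RAB3B. Without shCdGAP replicate 2, KRT19 and RAB3B were at 0.79 and 0.80.

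**Figure D4:**
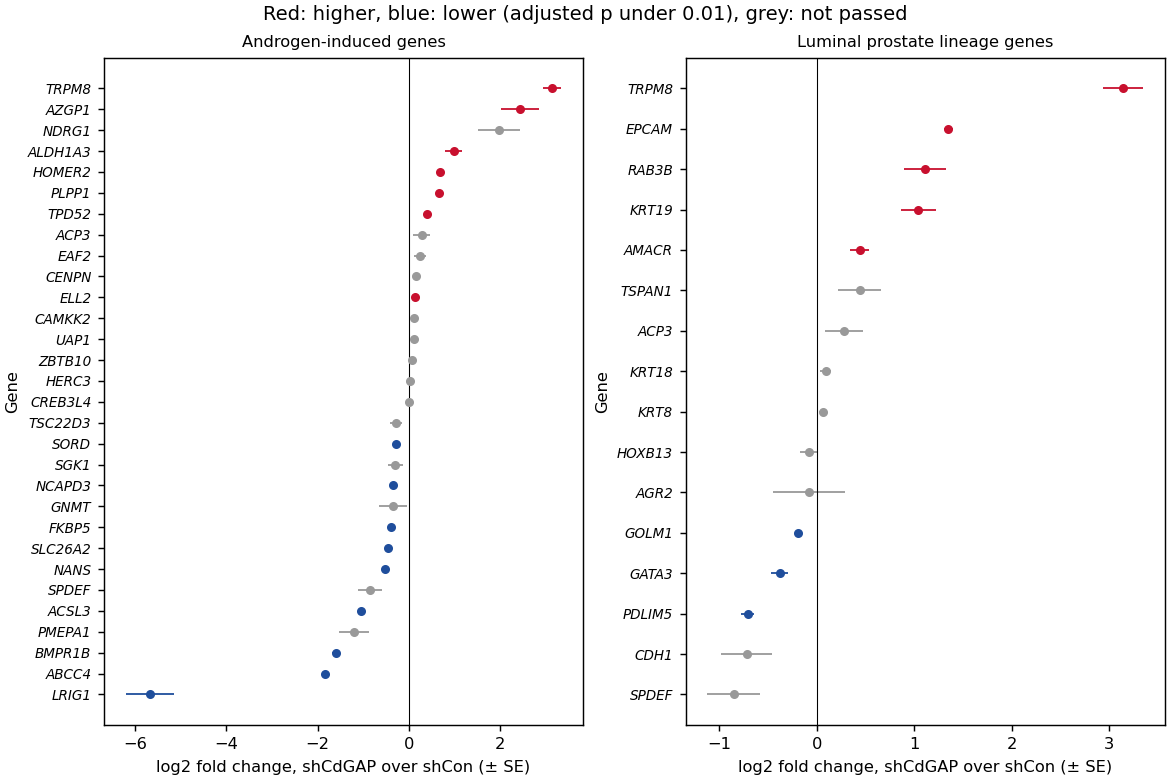
Log2 fold change of shCdGAP over shCon with its SE (horizontal axes) for the tested androgen-induced genes (left) and luminal prostate lineage genes (right); red genes are higher and blue genes lower at an adjusted p under 0.01, and grey genes did not pass. The androgen-induced genes run from -5.68 (LRIG1) to 3.14 (TRPM8) around a median of 0.05, and both lists hold genes in each direction; genes not reported here are not drawn.

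Cofactors and chaperones of the receptor were transcribed in both groups. Of 34 genes, 32 were tested, 6 were higher, 9 were lower and 17 did not pass, a share of 46.9% beside the background of 46.2%, with a median log2 fold change of -0.07. TGFB1I1, a focal adhesion adaptor that binds nuclear receptors, had 487, 450 and 459 compared with 208, 199 and 153 reads (log2 fold change 1.31, adjusted p = 1.09e-05, edgeR). The LIM-domain coactivator gene FHL2 was at 0.56 and CTNNB1, which encodes beta-catenin, at 0.48, both higher past the test. BAG1, an HSP70 co-chaperone gene, fell by 0.53 on the log2 scale (adjusted p = 4.2e-06, edgeR). The chaperone gene HSP90AB1 was lower by a small amount (log2 fold change -0.14, adjusted p = 0.00814, edgeR), a call lost in 4 of the 6 fits that leave out 1 library (adjusted p up to 0.0304). HSP90AA1, at 3827 ± 368 and 4124 ± 92 CPM (SD, n = 3 each), did not pass.

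Genes of androgen synthesis, uptake and breakdown showed 6 higher and 2 lower of 14 tested among 26, a share of 57.1% compared with 46.2% of all tested genes (24.1% higher and 22.0% lower). The median of their log2 fold changes was 0.19. SLCO2B1, which encodes a carrier that takes up steroid sulfates, had 95, 174 and 103 reads in shCdGAP replicates 1, 2 and 3 and no read in any shCon library. Against the limit of 3 reads per shCon library, it was at least 40-fold higher, though low at 3.11 ± 0.831 CPM in shCdGAP cells (SD, n = 3). SLCO1B3, another carrier gene of the list, named here after its values were seen, went the other way. It fell from 9.87 ± 0.496 to 6.68 ± 0.594 CPM (SD, n = 3 each; log2 fold change -0.56, adjusted p = 0.000719, edgeR). AKR1C2, which inactivates dihydrotestosterone, had 214, 164 and 172 compared with 57, 52 and 40 reads (log2 fold change 1.88, adjusted p = 1.65e-05, edgeR). AKR1C1 was at 1.13 (adjusted p = 3.87e-05, edgeR). AKR1C3, which makes testosterone and is named here after its values were seen, was at 1.11 (adjusted p = 3.88e-07, edgeR). The AKR1C genes lie together on chromosome 10 and are among each other's nearest tested genes, whose median was 1.12 to 1.13. Only 64.2% and 59.1% of the 50-base exon windows of AKR1C1 and AKR1C2 occurred once in the genome, compared with 95% for AKR1C3, so the split of reads between AKR1C1 and AKR1C2 is uncertain.

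HSD17B6, which can return androgen metabolites to dihydrotestosterone, had 80, 135 and 74 compared with 40, 40 and 22 reads (log2 fold change 1.48, adjusted p = 0.000537, edgeR). HSD17B10, a mitochondrial dehydrogenase gene, was lower at -0.16 (adjusted p = 0.00448, edgeR), and leaving out any of 3 libraries lost that call (adjusted p up to 0.0205). SRD5A3 had 86.3 ± 22.2 and 110 ± 6.74 CPM (SD, n = 3 each; adjusted p = 0.149, edgeR) and did not pass, with -0.58 and an adjusted p of 0.00351 without shCdGAP replicate 2.

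A list of steroid receptor genes was measured in the same cells. Of 9 genes, 6 were tested, 3 were higher and 3 did not pass, a share of 50% near the background of 46.2%, with a median log2 fold change of 0.72, also with ESR1 at its bound. Without shCdGAP replicate 2, 5 passed, 4 higher and 1 lower. NR3C1, the glucocorticoid receptor gene, had 3053, 3386 and 2558 reads in shCdGAP and 2342, 2314 and 1762 in shCon libraries. It rose from 54.6 ± 1.26 to 75.8 ± 1.72 CPM (SD, n = 3 each; log2 fold change 0.47, adjusted p = 1.07e-05, edgeR), without overlap, and the 10 tested genes around it had a median of 0.46. ESR1, the estrogen receptor alpha gene, had 21, 37 and 25 compared with 1, 0 and 2 reads, and against the limit of 3 reads per shCon library it was at least 8.97-fold higher. ESR2, the estrogen receptor beta gene, had 68, 89 and 71 compared with 14, 10 and 9 reads (log2 fold change 2.76, adjusted p = 7.4e-06, edgeR). ESRRA, an orphan receptor gene, was at 88.1 ± 4.1 and 89.4 ± 0.942 CPM (SD, n = 3 each; log2 fold change -0.02) and did not pass. ESR1 and ESR2 stayed low, at 0.698 ± 0.168 and 1.93 ± 0.218 CPM in shCdGAP cells (SD, n = 3 each).

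**Figure D5:**
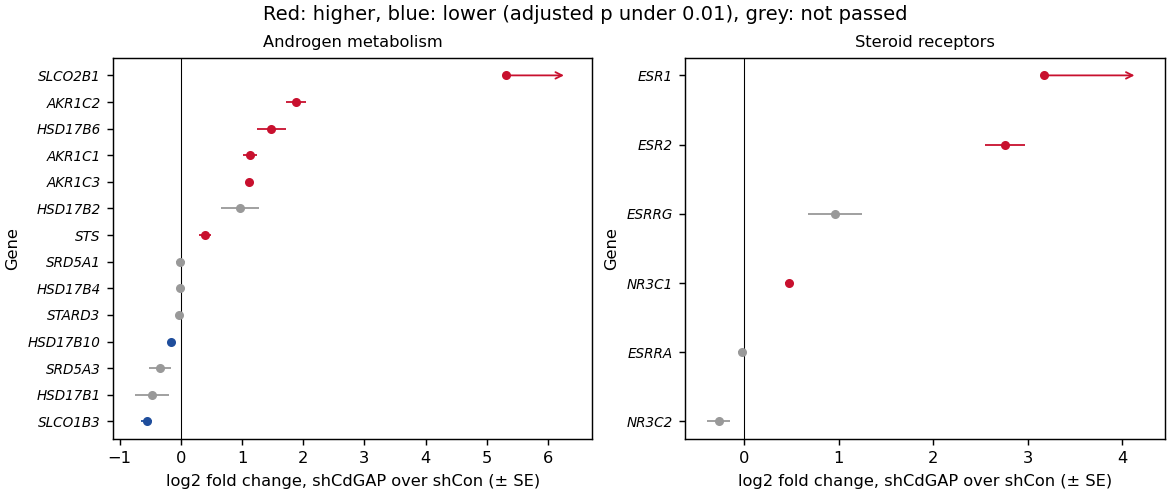
Log2 fold change of shCdGAP over shCon with its SE (horizontal axes) for tested genes of androgen metabolism (left) and tested steroid receptor genes (right); red genes are higher and blue genes lower at an adjusted p under 0.01, grey genes did not pass, and arrows mark lower bounds for SLCO2B1 and ESR1, whose shCon libraries held at most 3 reads. SLCO2B1 lies at least 40-fold and ESR1 at least 8.97-fold above shCon.

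Markers of other cell types were measured in the same libraries, and their part in the results above was not tested. Of 12 basal markers, 7 were tested, 4 were higher (KRT15 at 1.16, TP63 at 1.04, LAMB3 at 0.99 and CD44 at 0.63) and 1 was lower (ITGB4 at -3.78), a share of 71.4% compared with 46.2% of all tested genes, while the defining basal keratins KRT5 and KRT14 had no read. The neighbours of KRT15 had a median of 2.21. The summed level of the 12 basal markers was 1149 to 1326 CPM in shCdGAP and 1100 to 1123 CPM in shCon libraries. Within that sum, ITGB4 fell from 235 ± 14 to 17 ± 8.99 CPM and CD44 rose from 346 ± 1.51 to 535 ± 14.3 CPM (SD, n = 3 each). Of 15 neuroendocrine markers, 9 were tested, ENO2 was higher at 0.58, and SOX2 (-6.46), NCAM1 (-2.93) and ONECUT2 (-0.68) were lower, a share of 44.4% that is near that background, while CHGA and INSM1 had no read. The NCAM1 call was lost without shCdGAP replicate 1 or shCon replicate 1 and rested on at most 24 reads per library, with a log2 fold change of -4.84 without shCdGAP replicate 2. The ENO2 call was lost without any of 4 libraries (adjusted p up to 0.0891). The neuroendocrine sum was 617 to 672 CPM in shCdGAP and 600 to 615 CPM in shCon libraries. Most of it came from a single abundant gene that did not pass, so it does not show the fall of SOX2, NCAM1 and ONECUT2. Of 11 blood and endothelial markers, 5 had no read, among them CD3E and HBB, and LYZ was lower at -3.06 with at most 27 reads in a library. The sum of these blood and endothelial markers was 2.74 to 6.4 CPM in shCdGAP and 6.43 to 6.62 CPM in shCon libraries. It also came mostly from a single gene that did not pass.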

How the data were processed

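RNA of 3 shCdGAP and 3 shCon PC-3 samples, named as independent in the methods, was sequenced. The p-values rest on the spread between these libraries, with information on that spread shared across all genes tested. The authors deposited raw read counts per gene for each sample, without normalization. The submitters' notes name STAR 2.5.1b, featureCounts 1.4.6 and GRCh38, and the methods a single-read kit, while the file headers name featureCounts 1.6.0, strand-specific counting of pairs and Ensembl release 77. Reads with several alignments are not counted, which lowers genes with near-identical copies. Positions are those of the deposited tables.

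Symbols were found for 56105 of 64253 genes, and 32955 genes had no read. Counts were tested with edgeR 4.0.16 in R 4.3.3 (its quasi-likelihood F test with robust dispersions, filterByExpr and TMM, unpaired), with Benjamini-Hochberg adjustment over 16439 genes. Passing means an adjusted p under 0.01. The study's threshold for differential genes also asks for an absolute log2 fold change above 1, and genes past both limits are called. CPM uses TMM-scaled library sizes, RPKM divides it by counted exon length, and 95% intervals are for the log2 fold change. Gene levels of at most 3 reads were taken as the floor, and limits cover counting error only. Exact permutation of 3 against 3 libraries cannot go below a two-sided p of 0.1, so single genes were tested in the model across all genes. TMM factors lay between 0.987 and 1.01.

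The members and lists were chosen with earlier results of these data known. Genes named are the members, ARHGAP31, HOXB13, GATA2, FKBP5, NR3C1, up to 4 genes per list with the largest change past the test and the 2 with the highest level per length, cell type markers, and the 3 genes nearest to FOXA1. Others are marked, and a few genes that this rule names are not reported here. Promoters are RefSeq sequences (GRCh38.p14). The count scripts were tested on simulated data. Alternatives were DESeq2 1.42.0, other scalings, filters and thresholds, fits without 1 library and a fit with the replicate number as a block.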

Additional observations from a re-analysis of the deposited data

How the results depend on the processing

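Of 143 alternative values of the counts, levels, fold changes and neighbour medians above, 127 were judged the same as the main value. They included values under DESeq2, scaling by library size or upper quartile, filters of no or 10 reads and most fits without 1 library. A fold change was the same when its direction and side of the threshold held, whatever its size. A count was the same within a set ratio of the main count, and a level or neighbour median within its SD. Another scaling moved the median of all genes to at most 0.03. Tested against a log2 fold change of 1 with glmTreat, 998 genes passed (658 higher, 340 lower), with 0 members past the test and 0 at an unadjusted p under 0.05; FOXA1 (-0.55), STEAP1 (0.38) and STEAP2 (0.29) lie inside that limit by construction. With each library left out in turn, the number of called genes ran from 1867 to 2369, the members that passed from 2 to 3, FOXA1 from -0.58 to -0.54, STEAP1 from 0.31 to 0.42, STEAP2 from 0.22 to 0.34 and SLC45A3 from -0.14 to 0.02. STEAP2 no longer passed at 0.29 without shCdGAP replicate 1 or at 0.25, 0.28 and 0.31 without shCon replicates 1, 2 and 3, and SLC45A3 changed sign to 0.02 without shCdGAP replicate 1. Over the same fits, 16 to 24 androgen-induced genes, 5 to 13 luminal genes, 13 to 22 cofactors, 6 to 10 genes of androgen metabolism and 3 to 5 steroid receptors passed (5 without shCdGAP replicate 2). With 10 neighbours on each side, the medians were -0.02 (FOXA1), -0.25 (STEAP1), -0.25 (STEAP2) and 0.01 (SLC45A3). None of these medians was judged the same as its main value, and that of SLC45A3 changed sign from -0.08. The cause of these changes was not tested.

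Samples with the same replicate number did not deviate together (correlations 0.0306, 0.0499 and 0.0469), so the numbers were not taken as pairs. With the replicate number as a block, 2048 genes were called and the members gave -0.55 for FOXA1, 0.38 for STEAP1, 0.29 for STEAP2 (adjusted p = 0.0085, edgeR) and -0.04 for SLC45A3, with the same member calls. Among the genes of the 5 pathway lists, 16 androgen-induced genes and 13 cofactors passed with the block compared with 18 and 15 without it, and the calls of ALDH1A3 (adjusted p = 0.0189, edgeR), HSP90AB1 (0.0153), ELL2 (0.0154) and DNAJB1 (0.0108) were lost. Each sample correlated best with its own number, a hint from the data and not from the design. For the 4 silent members, 3 reads per library limit what can be seen, and 1 or 2 reads in a library are within counting error.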
